A study of Homo sapiens with 14 samples.

Results

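The interferon-stimulated genes described here are 50 genes of the type I interferon response, taken by current or older symbol from the annotation of the array. Of the 50 genes, 48 were measured, among 18417 genes in all, and 38 of them reached the brightness filter that 11050 genes passed, a mean log2 level of 5.90 over all arrays. STAT2 was not analysed here and GBP1 was found only in a probe set shared with other genes. The remaining 10, BST2, OASL, MX1, MX2, GBP2, TRIM22, SAMD9L, EPSTI1, CXCL10 and CXCL11, were too dim on average for the filter and are given as levels only.

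The study used 14 GeneChip Human Gene 1.0 ST arrays, 1 per condition, to follow epithelial-mesenchymal transition in a gastric carcinoma line, named MKN28 in the labels and MKN74 in the article, with and without knockdown of ANGPTL4, a secreted angiopoietin-like protein. Parental cells were kept at 1% oxygen with or without ANGPTL4 knockdown for 1 and 2 days, or given 10 ng/ml TGFb with or without knockdown for 1 and 2 days, and the control was 1 untreated array of day 2. Cells carrying Snai1ER, the transcription factor Snai1 fused to an estrogen receptor domain that 4-hydroxytamoxifen (4-OHT) switches on, were given 20 ng/ml 4-OHT with or without knockdown for 2 and 4 days, and their control was 1 untreated Snai1ER array of day 4. In the Snai1ER line the protocol describes the knockdown as a short hairpin RNA carried by the cells, and the untreated parental array, labelled as cells without hypoxia, serves both hypoxia and TGFb. In its assays the article describes siRNA against ANGPTL4 in the parental line and a hairpin switched on by doxycycline in Snai1ER cells. The sample labels name neither a method nor doxycycline. A difference in method between the lines cannot be told apart from the line. Knockdown was not measured without a treatment, no non-targeting control is named in the labels, and 4-OHT was not given to parental cells, so that the knockdown by itself was not set against untreated cells, and 4-OHT by itself cannot be told apart from Snai1 activation. With 1 array per condition the differences have no replicate check, and a p-value is given only where days or pairs of arrays were fitted together. The labels do not say whether the arrays of a condition came from separate cultures, so the spread in those fits may be technical.

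Type I interferons are secreted by cells that sense foreign nucleic acid, and they signal through the receptor chains IFNAR1 and IFNAR2 and the kinases JAK1 and TYK2 to a complex of transcription factors that includes IRF9. That complex binds a short repeated element in the promoters of many genes, whose products restrict viral entry, degrade or hold viral RNA, modify proteins with ISG15, and renew the sensors and factors of the pathway itself. Epithelial cells and many carcinoma lines express these genes at a basal level without added interferon, and the labels name no interferon among the agents used here.

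The arrays lay on 2 scales. The median of all probe sets was 5.19 and 5.23 on the arrays with TGFb alone, against 5.997 to 6.16 on the other 12. The 2 TGFb arrays held exactly the same value in 1031 probe sets, but shared no more than 2 values with any other array, whereas any 2 of the other 12 shared 110 to 786. Results are given on 2 scales for this reason, the deposited one and one made by quantile normalization of all 14 arrays, and levels are quoted after quantile normalization unless stated otherwise. The array of hypoxia with knockdown on day 1 was the most unlike the rest. Over the genes above the filter, after quantile normalization, its difference from the mean of the other arrays had an SD of 0.72 (log2). The same SD was 0.27 to 0.56 for any of the other 13. ANGPTL4 itself lay below the filter, at 5.08 to 5.39 on the 6 arrays labelled knockdown and 4.97 to 5.37 on the other 8, so its probe set was not lower on those arrays and gives no check of the knockdown. Every knockdown difference below therefore rests on the labels. SNAI1 was at 8.74 to 9.78 in the Snai1ER line, against 5.48 to 6.07 in the parental line. All 8 listed epithelial markers passed the filter, with EPCAM and CDH1 between 10.52 and 11.96 on every array, but not all were steady, since KRT8 read 9.62 and 11.25 on hypoxia with knockdown, against 12.001 and 12.03 on hypoxia alone, and KRT19 9.90 and 9.87 on TGFb, against 11.09 untreated. By at least 1.5-fold on both days after quantile normalization, 2 of these 8 markers fell on TGFb (3.26% of all genes). By the same rule 3 were lower with knockdown on hypoxia (3.78% of all genes). As deposited the markers CLDN7 and ELF3 fell on TGFb as well, where 32.3% of all genes fell. Of 7 immune cell markers measured, CD68 alone passed, at 6.93 to 8.09, and PTPRC stayed between 3.02 and 3.91, and of 7 fibroblast markers COL1A1 alone passed. Their part in the results was not tested. In a bulk RNA extract, fewer cells that express a gene and less RNA of it per cell cannot be told apart.

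The promoters of 6 members that differ in how they moved are shown. Many of the members, but not all, share a sequence element that played no part in choosing the list. Each line gives the 170 bases before the RefSeq start site on GRCh38.p14, 5′ to 3′ on the strand of the gene, with capitals for the motif TTTCNNTTTC, or GAAANNGAAA on the other strand, which is the repeat at the core of the interferon-stimulated response element.
IFIT1, chr10:89392453-89392622, plus strand: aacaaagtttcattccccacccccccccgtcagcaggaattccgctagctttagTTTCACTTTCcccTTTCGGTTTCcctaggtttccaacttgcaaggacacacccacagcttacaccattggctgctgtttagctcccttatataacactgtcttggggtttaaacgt
IFITM1, chr11:313870-314039, plus strand: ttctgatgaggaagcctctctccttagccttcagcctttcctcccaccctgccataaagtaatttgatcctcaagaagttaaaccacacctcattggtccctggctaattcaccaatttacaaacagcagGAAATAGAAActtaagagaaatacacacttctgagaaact
IFI44L, chr1:78620278-78620447, plus strand: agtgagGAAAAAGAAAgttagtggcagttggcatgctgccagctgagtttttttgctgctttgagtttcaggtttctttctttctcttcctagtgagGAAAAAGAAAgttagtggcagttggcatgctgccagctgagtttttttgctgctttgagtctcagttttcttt
ISG15, chr1:1013327-1013496, plus strand: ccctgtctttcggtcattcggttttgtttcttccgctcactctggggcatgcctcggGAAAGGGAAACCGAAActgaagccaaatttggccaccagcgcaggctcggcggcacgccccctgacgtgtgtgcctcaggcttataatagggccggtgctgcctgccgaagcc
HERC5, chr4:88456949-88457118, plus strand: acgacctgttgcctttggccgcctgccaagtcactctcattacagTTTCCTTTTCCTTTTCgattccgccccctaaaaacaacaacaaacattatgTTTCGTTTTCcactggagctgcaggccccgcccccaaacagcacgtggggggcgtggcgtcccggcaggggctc
DDX60, chr4:168318753-168318922, minus strand: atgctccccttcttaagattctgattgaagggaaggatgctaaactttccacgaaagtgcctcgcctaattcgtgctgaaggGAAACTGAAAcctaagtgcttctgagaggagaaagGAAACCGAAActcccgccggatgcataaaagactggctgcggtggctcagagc

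ISG15 and HERC5 carried neighbouring matches that overlap, and IFI44L carried the same match in a stretch that is repeated within its promoter. RefSeq promoter windows of 300 bases, 250 before and 50 after the start, were found for 40 of the 50 members, 53 windows in all. The motif stood in 33 of those 53 windows (62.3%), against 1255 of 35116 windows of all genes (3.57%). By gene, 28 of 40 members (70.0%) had it in at least 1 window, against 1195 of 27305 genes (4.38%). The genes printed above all have at least 2 matches in their windows and do not stand for the members without one. OAS1, XAF1, UBE2L6 and SP110, for example, had no match. At least 2 matches, which may overlap, lay in 16 of the members' windows (30.2%), against 91 of all windows (0.259%). A match of letters describes the sequence and does not show that a factor binds there.

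The members were highest, by median, on hypoxia without knockdown. They were lower than in untreated parental cells on TGFb, on the parental arrays labelled knockdown and in the untreated Snai1ER line. Their median level was 7.32 and 7.92 on days 1 and 2 of hypoxia with knockdown, against 8.91 and 9.53 on hypoxia alone and 8.66 in untreated parental cells. On TGFb the median was 7.56 and 6.61 with knockdown, against 7.05 and 7.17 without it. In the Snai1ER line it was 6.83 and 7.18 on days 2 and 4 of 4-OHT with knockdown, against 7.51 and 8.16 on 4-OHT alone and 7.07 untreated. Hypoxia on day 2 was the brightest array for 29 of the 38 members and 4-OHT on day 4 for 5 of them, while TGFb with knockdown on day 2 was the dimmest for 12 and 4-OHT with knockdown on day 2 for 11.

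**Figure D1:**
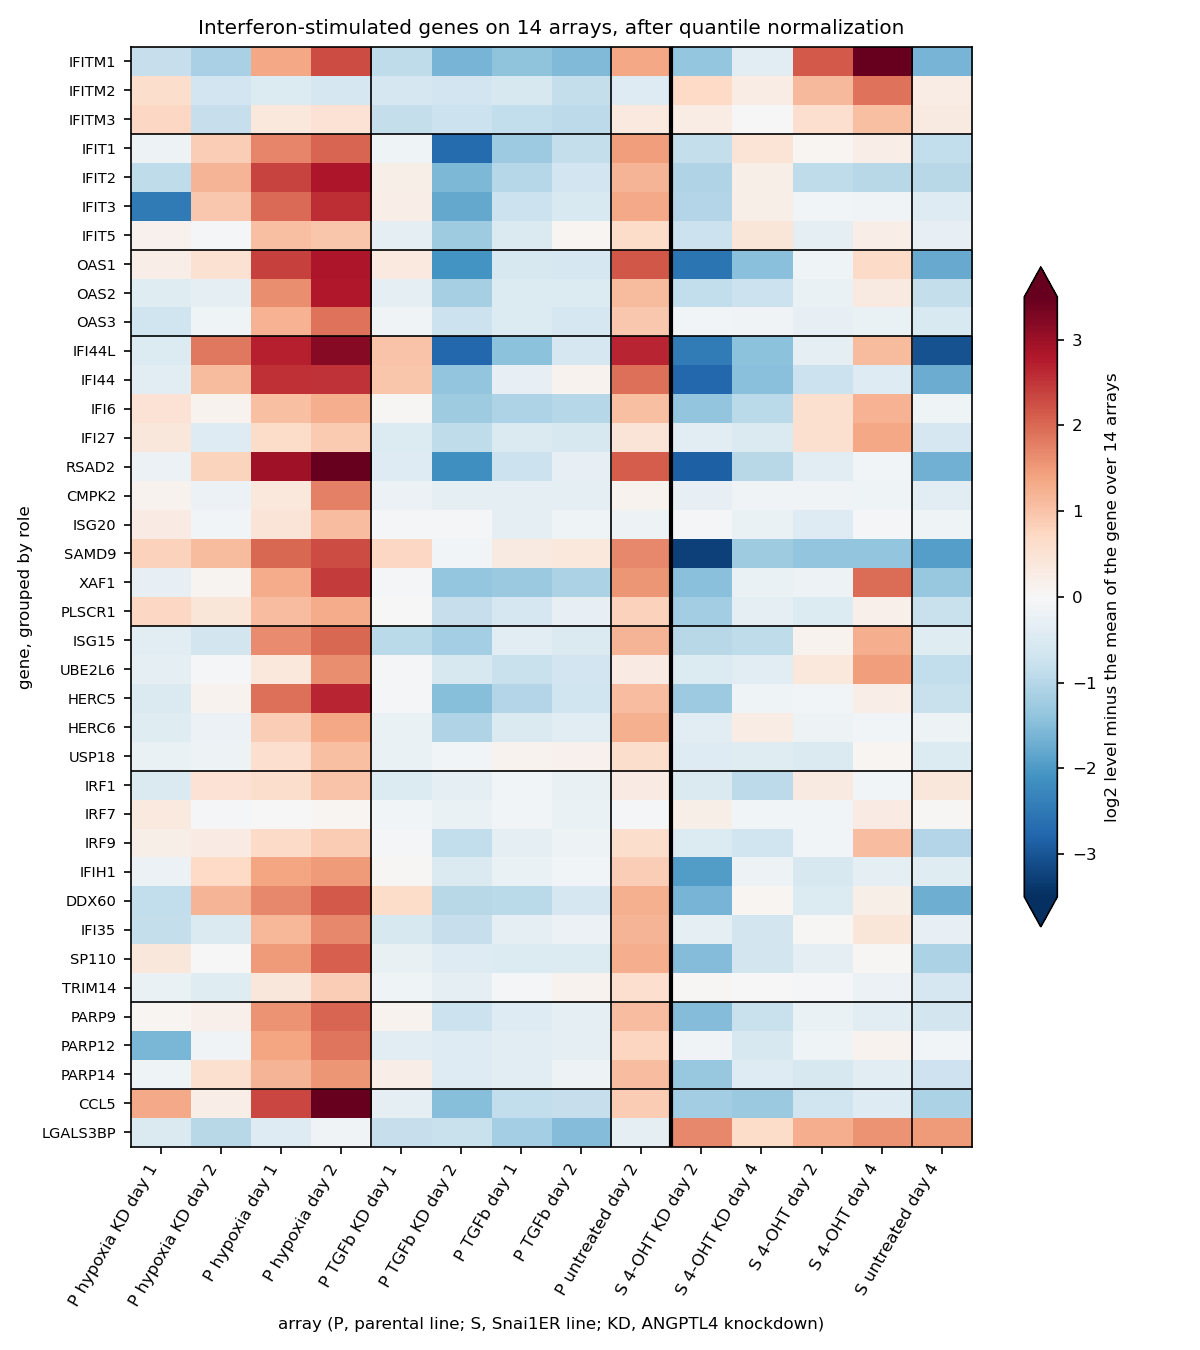
Each row is 1 of the 38 members above the filter, grouped by role, and each column 1 of the 14 arrays (P, parental line; S, Snai1ER line; KD, ANGPTL4 knockdown). Colour gives the log2 level after quantile normalization minus the mean of that gene over the 14 arrays. Most rows are red on hypoxia without knockdown and in untreated parental cells and blue on TGFb, and LGALS3BP is red across the Snai1ER line.

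To ask whether a treatment changed the members, each was called when it differed by at least 1.5-fold in 1 direction on both days. On hypoxia 8 of 38 members rose after quantile normalization (7 as deposited) and none fell, with a median difference of 0.46 on the log2 scale. Of all genes tested, 3.03% rose and 1.95% fell by the same rule after quantile normalization, and 2.94% and 1.71% as deposited. The 8 were IFIT2, IFIT3, IFI44, RSAD2, ISG20, HERC5, PARP12 and CCL5, of which IFI44 was called only after quantile normalization. On day 2 taken alone 20 members had risen by the deposited values, where 5.2% of all genes had. On hypoxia with knockdown, by contrast, 18 members were lower than in untreated cells after quantile normalization (19 as deposited) and none was higher, with a median of -0.93. Of all genes, 5.8% were lower and 1.95% higher there, and 6.29% and 1.52% as deposited.

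On TGFb 30 members fell after quantile normalization and all 38 as deposited, and none rose. The members' median difference was -1.46 after quantile normalization, against 0.01 over all 11050 genes, and -1.92 as deposited, against -0.46 over all genes. Of all genes, 3.26% fell and 2.5% rose after quantile normalization, and 32.3% and 0.452% as deposited. The 8 members not called after quantile normalization were IFITM2, IFIT5, CMPK2, ISG20, USP18, IRF1, IRF7 and TRIM14. A comparison that does not cross the scales is that of TGFb with knockdown against untreated cells. There 31 members fell after quantile normalization (30 as deposited) and none rose, with medians of -1.39 and -1.35. Those arrays differ from the control in both TGFb and knockdown, which cannot be told apart, and on hypoxia with knockdown 18 members were also lower. On TGFb with knockdown 3.74% of all genes fell and 0.968% rose after quantile normalization, and 3.08% and 1.26% as deposited.

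In the Snai1ER line 16 members rose on 4-OHT on either scale and none fell, with a median difference of 0.54. Among all genes 2.34% rose and 1.21% fell after quantile normalization, and 2.3% and 1.19% as deposited. Those called after quantile normalization were IFITM1, IFITM2, IFIT1, OAS1, OAS2, IFI44L, IFI44, IFI6, IFI27, RSAD2, XAF1, UBE2L6, HERC5, IRF9, DDX60 and SP110. As deposited, ISG15 was called in place of OAS2. On 4-OHT with knockdown TRIM14 alone rose over untreated Snai1ER cells and IFI6 and IRF1 fell, a median difference of 0.03, where 1.77% of all genes rose and 5.42% fell (1.87% and 4.86% as deposited). Untreated, 31 members were lower by at least 1.5-fold in the Snai1ER line than in the parental line, where 8.14% of all genes were lower after quantile normalization and 8.11% as deposited. The 2 members that were higher in untreated Snai1ER cells were IFITM2 and LGALS3BP, and 5.09% of all genes were higher (4.74% as deposited). These 2 arrays differ in line and in day, 4 against 2, which cannot be told apart.

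**Figure D2:**
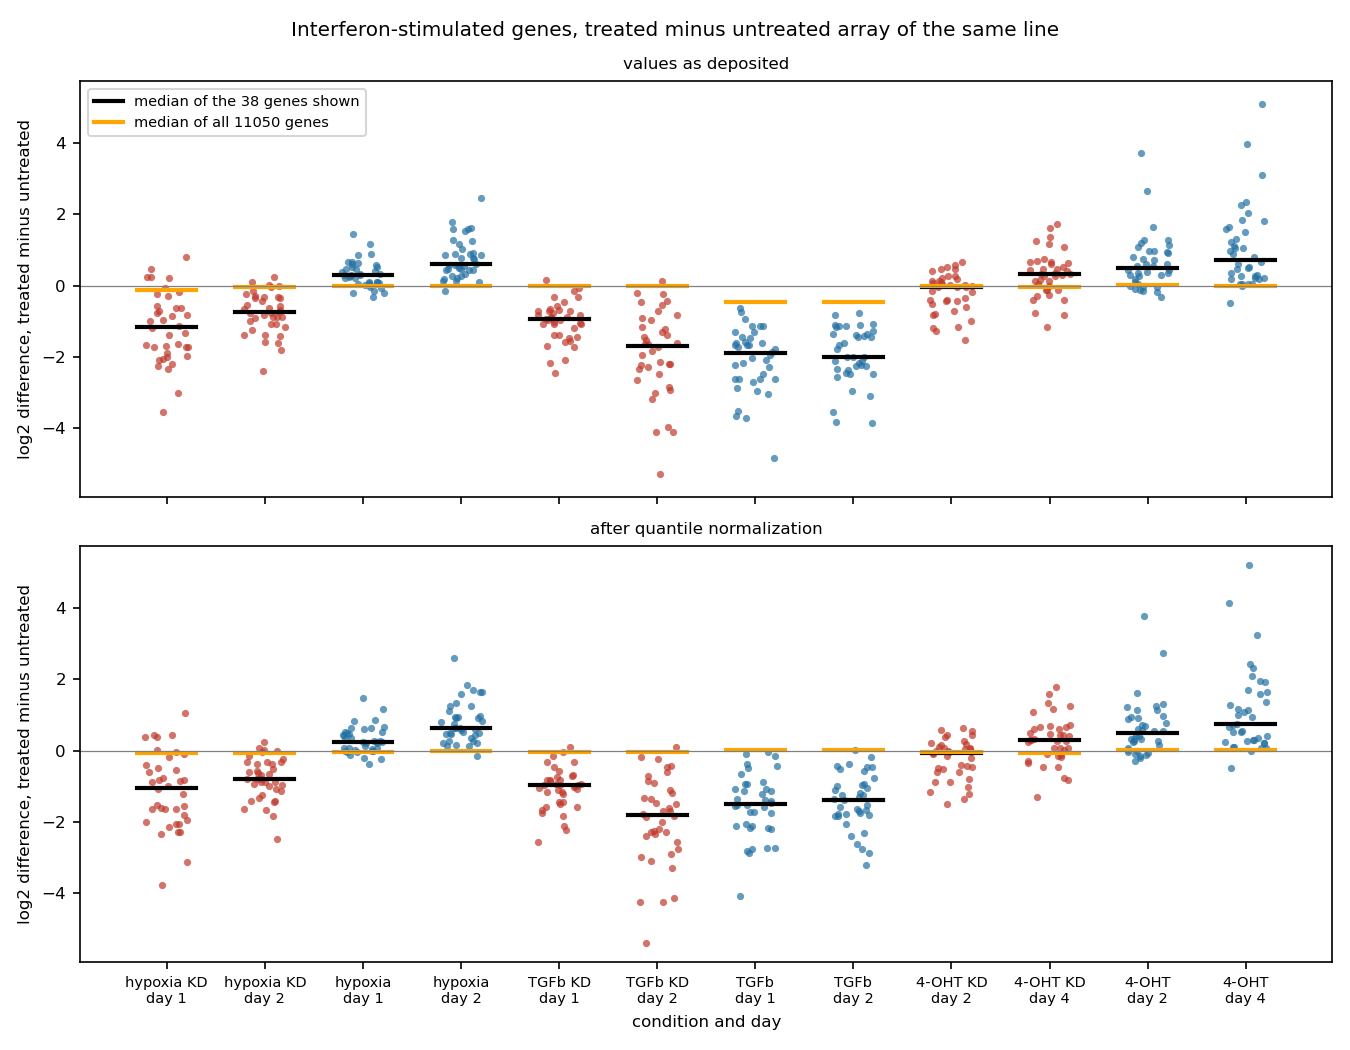
Each point is 1 of the 38 members, as the log2 difference between a treated array and the untreated array of the same line, with knockdown in red and without in blue, by condition and day. The upper panel uses the deposited values and the lower panel values after quantile normalization. Black bars mark the median of the members and orange bars that of all 11050 genes, which lies near -0.46 on TGFb alone as deposited and near 0 after quantile normalization, where the members' medians on TGFb stay at -1.50 and -1.38.

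The arrays labelled knockdown were set against the arrays without it at the same treatment and day, to ask whether ANGPTL4 knockdown altered the members. On hypoxia 27 members were lower with knockdown on both days after quantile normalization (28 as deposited) and none was higher, with a median of -1.46. Of all genes, 3.78% were lower and 0.67% higher by this rule, and 4.02% and 0.434% as deposited. On day 2 alone, without the most unlike array, 34 members were lower as deposited, where 9.23% of all genes were. On 4-OHT 13 members were lower after quantile normalization (12 as deposited) and none was higher, with a median of -0.70, where 7.47% of all genes were lower and 2.18% higher (6.77% and 2.38% as deposited). The hypoxia and 4-OHT pairs share no array, and 10 members were lower in both, 37% of those on hypoxia and 76.9% of those on 4-OHT. They were IFI44, IFI44L, IFITM1, ISG15, OAS1, OAS2, RSAD2, SP110, UBE2L6 and XAF1. As deposited IFI6 stood in place of OAS2. Since 27 of all 38 members were lower on hypoxia, most of any 13 members would be shared, and an overlap beyond that was not tested.

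On TGFb the knockdown difference depended on the scale. As deposited 6 members were higher with knockdown, XAF1, ISG20, IFITM1, LGALS3BP, CMPK2 and UBE2L6, at a median of 0.50, where 27.6% of all genes were higher and 0.751% lower. After quantile normalization none was called in either direction and the median was -0.02, where 1.36% of all genes were higher and 4.5% lower. The members' median differed by day, with a value of 0.32 on day 1 and -0.43 on day 2 after quantile normalization.

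**Figure D3:**
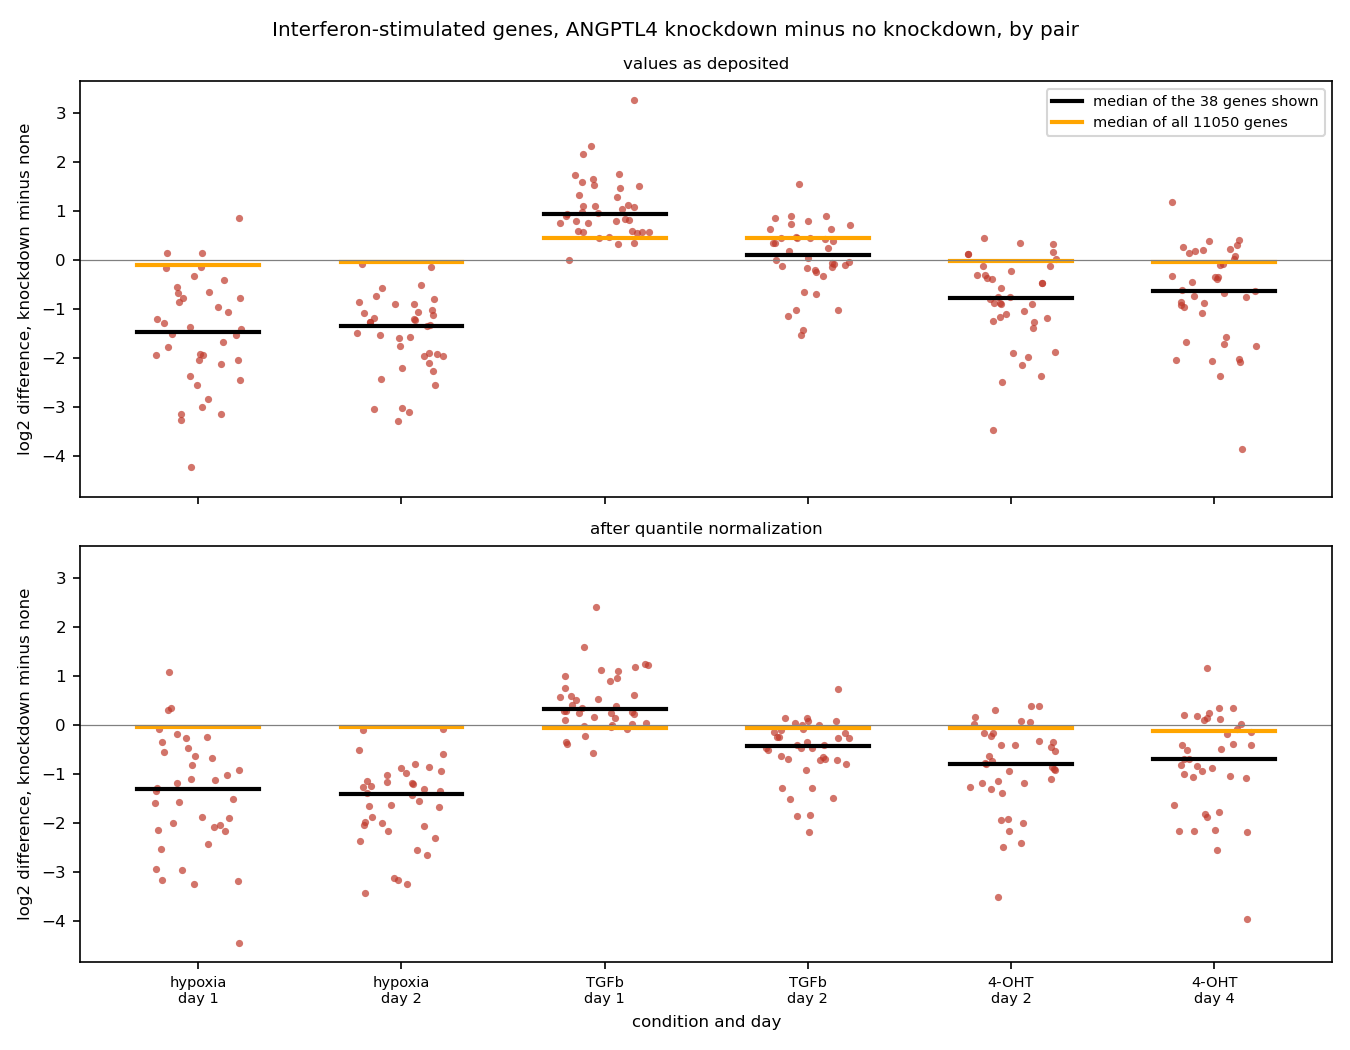
Each point is 1 of the 38 members, as the log2 difference between the arrays with and without ANGPTL4 knockdown at 1 treatment and day, as deposited (upper panel) and after quantile normalization (lower panel). Black bars mark the members' median and orange bars that of all 11050 genes. The members' medians lie at -1.30 and -1.40 on hypoxia and at -0.79 and -0.69 on 4-OHT after quantile normalization, and on both sides of 0 on TGFb.

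Among the membrane proteins that restrict viral entry, IFITM1 moved most. IFITM1 read 6.01 and 5.68 on days 1 and 2 of hypoxia with knockdown, against 8.16 and 9.10 on hypoxia alone and 8.16 in untreated parental cells. IFITM1 on TGFb was at 5.93 and 5.17 with knockdown and 5.39 and 5.27 without. IFITM1 in the Snai1ER line was at 5.45 and 6.43 on days 2 and 4 of 4-OHT with knockdown, against 8.96 and 10.39 on 4-OHT alone and 5.18 untreated. Its arrays with and without knockdown did not overlap on hypoxia or on 4-OHT, all 4 TGFb arrays lay below the untreated parental array, and the highest level of all was that of 4-OHT on day 4. The level in untreated Snai1ER cells lay below the 5.90 of the filter, where a signal may be background. The gene by gene account therefore gives no fold against it or against other levels under 5.90. The limma differences given for IFITM1 below include such levels. IFITM3, the family member best known for blocking fusion of influenza virus in endosomes, read 10.95 and 9.44 on hypoxia with knockdown, against 10.60 and 10.73 on hypoxia alone and 10.58 untreated. IFITM3 on TGFb was at 9.40 and 9.48 with knockdown and 9.36 and 9.33 without, all below the untreated array. IFITM3 in the Snai1ER line varied less, with 10.49 and 10.25 on 4-OHT with knockdown, against 10.82 and 11.30 on 4-OHT alone and 10.54 untreated. IFITM2 stayed within 1.5-fold of untreated cells on TGFb, at 6.90 and 6.82 with knockdown and 6.94 and 6.67 without, against 7.05 untreated. IFITM2 on hypoxia was at 8.10 and 6.82 with knockdown and 7.02 and 6.90 without. IFITM2 rose on 4-OHT, to 8.64 and 9.39, against 7.75 in untreated Snai1ER cells, and read 8.20 and 7.77 with knockdown. The IFITM genes are close in sequence, and how far their probe sets share signal was not tested.

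The IFIT genes encode proteins that bind viral RNA, IFIT1 at ends that lack the methyl marks of host messages, with IFIT2 and IFIT3 as its partners. IFIT2 read 7.11 and 9.18 on days 1 and 2 of hypoxia with knockdown, against 10.35 and 10.83 on hypoxia alone and 9.19 untreated. IFIT3 read 5.27 and 8.68 with knockdown, against 9.72 and 10.32 on hypoxia alone and 9.06 untreated. IFIT1 read 9.78 and 10.82 with knockdown, against 11.65 and 11.99 on hypoxia alone and 11.41 untreated. In all 3 genes both hypoxia arrays without knockdown were above the untreated array and both with knockdown below it, by as little as 0.01 for IFIT2 on day 2, and the day 1 array with knockdown was the lower. IFIT2 rose 2.23-fold and 3.12-fold and IFIT3 1.58-fold and 2.40-fold on days 1 and 2 of hypoxia, while IFIT1 differed by 1.18-fold and 1.49-fold and was not called. IFIT2 on TGFb was at 8.20 and 6.42 with knockdown and 7.002 and 7.33 without. IFIT3 on TGFb was at 7.99 and 5.94 with knockdown and 6.98 and 7.22 without. IFIT1 on TGFb was at 9.81 and 7.27 with knockdown and 8.67 and 9.11 without. In each gene the TGFb arrays with knockdown were the highest on day 1 and the lowest on day 2 of the 4, with the arrays without knockdown between them. In the Snai1ER line the group moved less. IFIT2 read 6.95 and 8.19 on 4-OHT with knockdown, against 7.10 and 7.03 on 4-OHT alone and 7.03 untreated. IFIT3 in that line was at 6.71 and 7.96 with knockdown, against 7.64 and 7.61 without and 7.30 untreated. IFIT1 in that line was at 9.11 and 10.43 with knockdown, against 10.01 and 10.17 without and 9.08 untreated. The arrays with and without knockdown overlapped in all 3, and IFIT1 alone rose on 4-OHT, 1.90-fold and 2.13-fold on days 2 and 4. IFIT5, the fourth member, ranged between 6.04 and 8.33 over the 14 arrays and was called lower with knockdown on hypoxia.

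The oligoadenylate synthetases make the small messenger that switches on RNase L, which cuts RNA in infected cells. OAS1 read 8.77 and 9.07 on hypoxia with knockdown, against 10.94 and 11.37 on hypoxia alone and 10.72 untreated. OAS2 read 5.65 and 5.76 with knockdown, against 7.72 and 8.89 on hypoxia alone and 7.19 untreated. OAS3 read 6.96 and 7.51 with knockdown, against 8.86 and 9.55 on hypoxia alone and 8.60 untreated. The 3 genes gave 1 picture on hypoxia, with both arrays without knockdown above the untreated array and both with knockdown below it, but none passed the rule for a rise on hypoxia. With knockdown OAS1 was 4.50-fold and 4.92-fold and OAS3 3.75-fold and 4.12-fold lower than on hypoxia alone on days 1 and 2. OAS1 on TGFb was at 8.88 and 6.46 with knockdown and 7.98 and 7.95 without. OAS2 on TGFb was at 5.76 and 4.92 with knockdown and 5.61 and 5.62 without. OAS3 on TGFb was at 7.53 and 6.90 with knockdown and 7.18 and 7.06 without. All TGFb arrays lay below the untreated array in all 3 genes, and the arrays with knockdown again lay on both sides of those without. OAS1 in the Snai1ER line was at 5.98 and 7.06 on 4-OHT with knockdown, against 8.39 and 9.20 on 4-OHT alone and 6.77 untreated. OAS2 in that line was at 5.23 and 5.33 with knockdown, against 5.86 and 6.39 without and 5.24 untreated. OAS3 in that line was at 7.55 and 7.52 with knockdown, against 7.37 and 7.41 without and 7.11 untreated. OAS1 and OAS2 thus rose on 4-OHT and were lower with knockdown, with no overlap, while the OAS3 arrays with knockdown lay slightly above those without. Both calls of OAS2 held only after quantile normalization. Its levels in that line lay under the 5.90 of the filter, except on day 4 of 4-OHT alone.

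**Figure D4:**
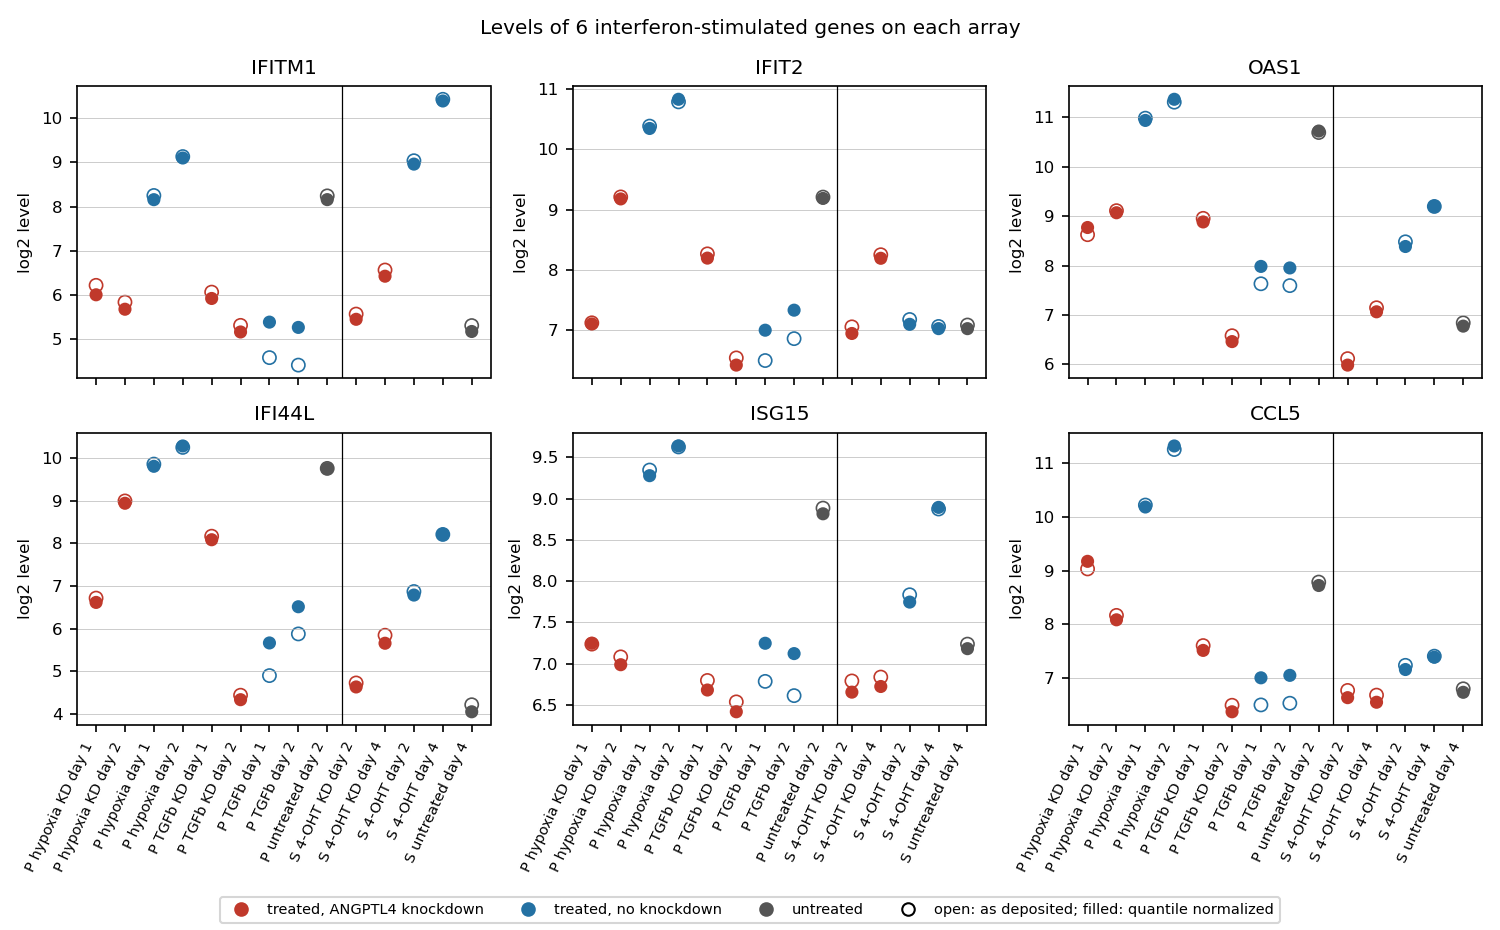
Log2 level of 6 members, each of a different role, on each of the 14 arrays, with knockdown in red, without in blue and untreated in grey. Filled points are values after quantile normalization and open points the deposited values, which differ most on the 2 arrays with TGFb alone. IFITM1 on 4-OHT, CCL5 on hypoxia and ISG15 on both lie above the arrays with knockdown, and a vertical line separates the parental line from the Snai1ER line.

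Of the other induced effectors, RSAD2 and IFI44L had the widest ranges over the arrays. IFI44L read 6.61 and 8.94 on hypoxia with knockdown, against 9.80 and 10.28 on hypoxia alone and 9.75 untreated. IFI44L on TGFb was at 8.08 and 4.34 with knockdown and 5.67 and 6.51 without. IFI44L in the Snai1ER line was at 4.63 and 5.66 on 4-OHT with knockdown, against 6.79 and 8.21 on 4-OHT alone and 4.05 untreated. Untreated Snai1ER cells gave its lowest level, under the filter, and on 4-OHT it rose above the filter on both days. RSAD2, which encodes viperin, an enzyme that makes a nucleotide ending RNA chains, read 6.91 and 7.89 on hypoxia with knockdown, against 10.08 and 11.05 on hypoxia alone and 9.22 untreated. RSAD2 on TGFb was at 6.64 and 4.97 with knockdown and 6.35 and 6.82 without. RSAD2 in the Snai1ER line was at 4.26 and 6.13 on 4-OHT with knockdown, against 6.74 and 7.01 on 4-OHT alone and 5.42 untreated. RSAD2 rose on hypoxia and on 4-OHT, and in both treatments its arrays with knockdown lay below those without, on hypoxia by 8.99-fold and 8.99-fold on days 1 and 2. SAMD9, a factor that restricts poxviruses, read 10.40 and 10.70 on hypoxia with knockdown, against 11.59 and 11.87 on hypoxia alone and 11.28 untreated. SAMD9 on TGFb was at 10.31 and 9.50 with knockdown and 9.90 and 9.96 without. SAMD9 in the Snai1ER line was at 6.31 and 8.34 on 4-OHT with knockdown, against 8.22 and 8.20 on 4-OHT alone and 7.68 untreated. Every Snai1ER array of SAMD9 was below every parental array, and its low level on day 2 of 4-OHT with knockdown was not shared by day 4. The other 7 above the filter were IFI44, IFI6, IFI27, CMPK2, ISG20, XAF1 and PLSCR1. Of all 10, 8 fell on TGFb after quantile normalization (3.26% of all genes) and 6 rose on 4-OHT (2.34%). With knockdown 5 were lower on hypoxia (3.78% of all genes) and 6 on 4-OHT (7.47%). As deposited all 10 fell on TGFb, where 32.3% of all genes fell, and 6 rose on 4-OHT (2.3%). With knockdown 6 were then lower on hypoxia (4.02%) and 6 on 4-OHT (6.77%).

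ISG15 is a ubiquitin-like protein that UBE2L6 carries and HERC5 attaches to other proteins, and USP18 removes it. ISG15 read 7.25 and 6.99 on hypoxia with knockdown, against 9.28 and 9.64 on hypoxia alone and 8.82 untreated. ISG15 on TGFb was at 6.68 and 6.42 with knockdown and 7.25 and 7.12 without. ISG15 in the Snai1ER line was at 6.65 and 6.72 on 4-OHT with knockdown, against 7.75 and 8.89 on 4-OHT alone and 7.18 untreated. In ISG15 all arrays with knockdown lay below all arrays without it within each of the 3 treatments after quantile normalization. As deposited its TGFb arrays overlapped, at 6.80 and 6.54 with knockdown and 6.78 and 6.61 without. The ISG15 arrays of 4-OHT with knockdown also lay below untreated Snai1ER cells. UBE2L6 read 7.84 and 8.12 on hypoxia with knockdown, against 8.52 and 9.79 on hypoxia alone and 8.45 untreated. UBE2L6 on TGFb was at 8.12 and 7.59 with knockdown and 7.37 and 7.50 without. UBE2L6 in the Snai1ER line was at 7.68 and 7.80 on 4-OHT with knockdown, against 8.53 and 9.61 on 4-OHT alone and 7.29 untreated. UBE2L6, like ISG15, was lower with knockdown on hypoxia and on 4-OHT, but on TGFb its arrays with knockdown were the higher. HERC5 read 7.61 and 8.27 on hypoxia with knockdown, against 10.05 and 10.81 on hypoxia alone and 9.22 untreated. HERC5 on TGFb was at 8.07 and 6.65 with knockdown and 7.11 and 7.44 without. HERC5 in the Snai1ER line was at 6.86 and 7.98 on 4-OHT with knockdown, against 8.04 and 8.37 on 4-OHT alone and 7.36 untreated. HERC5 rose on hypoxia and on 4-OHT and was lower with knockdown on hypoxia. HERC6, a relative of HERC5, ranged between 6.81 and 9.22 and USP18 between 6.18 and 7.74. All 5 genes of the system were lower with knockdown on hypoxia, where 3.78% of all genes were (4.02% as deposited).

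The sensors and factors of the pathway include IFIH1, or MDA5, which binds long double-stranded RNA. IFIH1 read 10.07 and 10.99 on hypoxia with knockdown, against 11.66 and 11.79 on hypoxia alone and 11.16 untreated. IFIH1 on TGFb was at 10.33 and 9.78 with knockdown and 10.06 and 10.19 without. IFIH1 in the Snai1ER line was at 8.34 and 10.11 on 4-OHT with knockdown, against 9.74 and 9.97 on 4-OHT alone and 9.86 untreated. IFIH1 was lower with knockdown on hypoxia, fell on TGFb and stayed within 1.5-fold on 4-OHT alone. DDX60, a helicase of antiviral RNA sensing, read 6.34 and 8.39 on hypoxia with knockdown, against 8.87 and 9.33 on hypoxia alone and 8.42 untreated. DDX60 on TGFb was at 7.84 and 6.22 with knockdown and 6.25 and 6.62 without. DDX60 in the Snai1ER line was at 5.56 and 7.25 on 4-OHT with knockdown, against 6.71 and 7.39 on 4-OHT alone and 5.47 untreated. DDX60 rose on 4-OHT, where the later array with knockdown overlapped those without. SP110, a nuclear body protein, read 9.28 and 8.92 on hypoxia with knockdown, against 10.39 and 10.98 on hypoxia alone and 10.16 untreated. SP110 on TGFb was at 8.65 and 8.45 with knockdown and 8.42 and 8.41 without. SP110 in the Snai1ER line was at 7.37 and 8.25 on 4-OHT with knockdown, against 8.55 and 8.94 on 4-OHT alone and 7.79 untreated. SP110 was lower with knockdown on hypoxia and on 4-OHT with no overlap, and its 4 TGFb arrays lay within 0.24 of each other. The transcription factor IRF9 rose on 4-OHT, to 7.57 and 8.72, against 6.62 untreated, and fell on TGFb, to 7.34 and 7.48, against 8.27 untreated. IRF7 hardly moved, between 6.97 and 7.54 over the 14 arrays, and IRF1 ranged between 5.34 and 7.25. TRIM14, an adaptor, was the 1 member that rose on 4-OHT with knockdown against untreated Snai1ER cells, at 6.95 and 6.92, against 6.31.

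The 3 ADP-ribosyltransferases of the list were lower with knockdown on hypoxia and fell on TGFb. Of all genes, 3.78% and 3.26% did so after quantile normalization, and 4.02% and 32.3% as deposited. PARP9 read 8.55 and 8.66 on hypoxia with knockdown, against 10.05 and 10.54 on hypoxia alone and 9.56 untreated. PARP12 read 5.99 and 7.47 with knockdown, against 8.95 and 9.46 on hypoxia alone and 8.35 untreated. PARP14 read 9.50 and 10.21 with knockdown, against 10.84 and 11.19 on hypoxia alone and 10.72 untreated. Both arrays with knockdown lay below both without in each gene, and PARP12 alone rose on hypoxia, 1.52-fold and 2.16-fold on days 1 and 2. PARP9 on TGFb was at 8.62 and 7.73 with knockdown and 8.03 and 8.19 without. PARP12 on TGFb was at 7.23 and 7.14 with knockdown and 7.21 and 7.28 without. PARP14 on TGFb was at 9.88 and 9.21 with knockdown and 9.26 and 9.48 without. All these arrays lay below the untreated parental array. PARP9 in the Snai1ER line was at 6.98 and 7.72 on 4-OHT with knockdown, against 8.25 and 8.12 on 4-OHT alone and 7.85 untreated. PARP12 in that line was at 7.45 and 7.02 with knockdown, against 7.44 and 7.71 without and 7.49 untreated. PARP14 in that line was at 8.32 and 9.21 with knockdown, against 9.10 and 9.29 without and 8.93 untreated. None of the 3 was called on 4-OHT, with or without knockdown.

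Among secreted products, CCL5, a chemokine that draws T cells, showed the largest rise on hypoxia of all members. CCL5 read 9.17 and 8.08 on hypoxia with knockdown, against 10.19 and 11.33 on hypoxia alone and 8.72 untreated. CCL5 on TGFb was at 7.51 and 6.36 with knockdown and 6.996 and 7.04 without. CCL5 in the Snai1ER line was at 6.63 and 6.54 on 4-OHT with knockdown, against 7.15 and 7.38 on 4-OHT alone and 6.73 untreated. The rise on hypoxia was 2.76-fold and 6.09-fold on days 1 and 2, and with knockdown CCL5 was 2.02-fold and 9.50-fold lower than on hypoxia alone. LGALS3BP, a glycoprotein that binds galectin 3, read 7.07 and 6.60 on hypoxia with knockdown, against 7.14 and 7.47 on hypoxia alone and 7.26 untreated. LGALS3BP on TGFb was at 6.79 and 6.80 with knockdown and 6.39 and 6.07 without. LGALS3BP in the Snai1ER line was at 9.25 and 8.24 on 4-OHT with knockdown, against 8.86 and 9.17 on 4-OHT alone and 9.06 untreated. Every Snai1ER array of LGALS3BP was above every parental array, the reverse of SAMD9.

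The later and the earlier day of a condition were compared to see the course of the response, with 1 difference per gene. On hypoxia 12 members were higher by at least 1.5-fold on day 2 than on day 1 (10 as deposited) and none was lower, where 1.09% of all genes were higher and 1.06% lower (1.03% and 1.07% as deposited). CMPK2, a mitochondrial nucleotide kinase, was 1 of them, at 7.30 and 8.71 on days 1 and 2. On TGFb with knockdown the course was downward, with 22 members lower on day 2 than on day 1 on either scale and none higher, where 2.92% of all genes were lower and 2.57% higher (2.62% and 2.76% as deposited). IFI44L was the member that dropped most, at 8.08 and 4.34 on days 1 and 2. On TGFb alone IFI44L was the only member to pass after quantile normalization, higher on day 2 (2 members as deposited), where 0.0543% of all genes were higher and 0.0724% lower (0.163% and 0.308% as deposited). On 4-OHT 12 members were higher on day 4 than on day 2 (10 as deposited) and none was lower, where 6.83% of all genes were higher and 9.51% lower (5.29% and 11.1% as deposited). On 4-OHT with knockdown 19 were higher on day 4 and LGALS3BP lower, where 9.79% of all genes were higher and 11.4% lower (9.71% and 11.1% as deposited). On hypoxia with knockdown 12 were higher and 4 lower on day 2 than on day 1, but 21.5% and 17.2% of all genes did so (25.1% and 12.6% as deposited) on that pair, which holds the most unlike array.

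The knockdown effect was tested across the 6 pairs with limma, with treatment and day as a block. After quantile normalization ISG15 differed by -1.54 on the log2 scale (SE 0.28, n = 6 pairs, adjusted p = 0.0437 by limma over all genes) and was lower with knockdown in 6 of 6 pairs. It was the 1 member called, of 89 genes lower and 10 higher (0.805% and 0.0905% of all), and 21 members (55.3%) had an unadjusted p under 0.05, as did 19% of all genes. RSAD2 differed by -1.87 (SE 0.42, adjusted p = 0.0749 by limma) and OAS1 by -1.60 (SE 0.39, adjusted p = 0.0951), each lower in 5 of 6 pairs. The median over the members was -0.70, against -0.06 over all genes. As deposited 0 members were called, where 0.0814% of all genes were called lower and 0.0452% higher. An unadjusted p under 0.05 was found there for 8 members (21.1%), close to the 16.7% of all genes. ISG15 was nearest as deposited, at -1.30 (SE 0.32, adjusted p = 0.124 by limma), lower in 5 of 6 pairs. With each array centred on its median instead, 13 members were called, and the share of all genes was not counted there. Leaving out 1 pair at a time gave 0 to 2 calls after quantile normalization, a choice made after the data were seen. These were 1 without the hypoxia day 1 pair, 2 without the TGFb day 1 pair and 0 without any other. As deposited it gave 0 to 4.

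Without the TGFb pairs, a choice made after the data were seen, no array of the lower scale enters and 4 pairs remain. There OAS1 differed by -2.24 on the log2 scale with knockdown (SE 0.18, adjusted p = 0.0201 by limma) and IFITM1 by -3.16 (SE 0.30, adjusted p = 0.0400), and these 2 were the only genes called of 11050. ISG15 in that fit differed by -1.93 (SE 0.26, adjusted p = 0.109 by limma). Each of the 3 was lower in 4 of 4 pairs.

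Whether the knockdown acted differently on TGFb was tested by the contrast of its effect there with the mean of its effects on hypoxia and 4-OHT. As deposited IFITM1 differed by 4.35 on the log2 scale (SE 0.40, adjusted p = 0.0264 by limma over all genes), with effects of 1.19 on TGFb, -2.66 on hypoxia and -3.66 on 4-OHT. It was 1 of 3 genes called (0.0271%), and the members' median contrast was 1.68, against 0.53 over all genes. Without either TGFb pair or either 4-OHT pair 0 members were called, and without the hypoxia day 2 pair 16. After quantile normalization the same contrast of IFITM1 was 3.48 (SE 0.41, adjusted p = 0.263 by limma) with an effect of 0.22 on TGFb, and 0 members were called, with 16 (42.1%) at an unadjusted p under 0.05, against 5.23% of all genes. An F test of any difference among the 3 treatments called 0 members on either scale, with 28 as deposited (73.7%, against 27.2% of all genes) and 21 after quantile normalization (55.3%, against 9.32%) at an unadjusted p under 0.05.

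With the days of a condition taken as its replicates, limma called 22 members lower on TGFb as deposited, where 15% of all genes were lower and 0.0905% higher, and 0 after quantile normalization, with 25 members (65.8%) and 4.99% of all genes at an unadjusted p under 0.05 and 0.00905% of all genes called higher. On TGFb with knockdown, where both sides lie on the higher scale, 0 members were called and 26 (68.4%) had an unadjusted p under 0.05 on either scale, against 4% of all genes as deposited and 4.08% after quantile normalization. On hypoxia and on 4-OHT 0 members were called, with 3 on hypoxia (7.89%, against 3.46% of all genes) and 11 on 4-OHT (28.9%, against 4.41%) at an unadjusted p under 0.05 as deposited, and on 4-OHT 0.00905% of all genes were called lower after quantile normalization. With knockdown 0 members were called on hypoxia and on 4-OHT, with 12 on hypoxia (31.6%, against 11.5% of all genes) and 2 on 4-OHT (5.26%, against 7.62%) at an unadjusted p under 0.05 as deposited. IFITM1 on 4-OHT was the nearest of those on 4-OHT, higher by 4.42 than in untreated Snai1ER cells (SE 0.60, adjusted p = 0.135 by limma). The untreated arrays stand alone in these fits and are assumed to vary like the other groups.

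The genes upstream of the members were read from lists of the pathway. Of 14 interferon receptor and JAK-STAT genes above the filter, 0 rose or fell on hypoxia, TGFb or 4-OHT after quantile normalization, with medians of 0.08, 0.07 and -0.06. IFNAR1, a chain of the type I receptor, read 9.40 and 9.41 on hypoxia with knockdown, against 9.42 and 9.12 on hypoxia alone and 9.31 untreated. The lowest of its levels were in the Snai1ER line, where it read 7.91 and 8.59 on 4-OHT with knockdown, against 8.38 and 7.58 on 4-OHT alone and 8.81 untreated. Of 11 nucleic acid sensing genes above the filter, RIGI and TRIM25 were lower with knockdown on hypoxia, where 3.78% of all genes were. RIGI, a sensor of short double-stranded RNA, was at 9.97 and 9.83 on hypoxia with knockdown, against 11.36 and 11.55 on hypoxia alone and 11.08 untreated. TRIM25, a ubiquitin ligase that acts on RIGI, was at 8.60 and 9.03 with knockdown, against 10.16 and 10.44 on hypoxia alone and 9.85 untreated. RIGI alone of the 11 fell on TGFb, where it read 9.89 and 9.32 with knockdown and 9.51 and 9.54 without. TLR3, which senses RNA in endosomes, was at 5.85 in untreated Snai1ER cells, against 7.64 in untreated parental cells. CGAS, which senses DNA, was at 6.90 and 7.85 on 4-OHT with knockdown, against 8.14 and 8.67 on 4-OHT alone. Of 17 other interferon-response genes above the filter, 4 rose and IFI30 fell on hypoxia (3.03% and 1.95% of all genes), 6 fell on TGFb (3.26%) and 8 were lower with knockdown on hypoxia (3.78%). IFI30, a lysosomal thiol reductase, was at 8.59 and 8.67 on hypoxia, against 9.35 untreated. DTX3L, the ubiquitin ligase partner of PARP9, was 1 of these 8, at 7.63 and 8.34 with knockdown, against 9.58 and 9.96 without.

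The interferon genes themselves were dim. Of those listed, only IFNL2 and IFNL3 passed the filter, IFNL2 between 5.49 and 6.25 and IFNL3 between 7.42 and 8.19 over the 14 arrays, and neither was called on hypoxia, TGFb or 4-OHT. IFNB1, singled out after its values were seen because it encodes the interferon that most cells make first, lay below the filter on average, at 6.40 and 4.05 on hypoxia with knockdown, against 6.42 and 5.89 on hypoxia alone and 4.73 untreated. On the other 9 arrays IFNB1 lay between 3.40 and 4.09.

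Of the dim members, MX2, CXCL10 and GBP2 were singled out after their values were seen. MX2, a dynamin-like GTPase that blocks retroviruses at the nuclear pore, read 5.22 and 5.25 on hypoxia with knockdown, against 7.17 and 8.14 on hypoxia alone and 6.50 untreated. MX2 on TGFb was at 5.31 and 4.76 with knockdown and 5.198 and 5.61 without. MX2 in the Snai1ER line was at 4.72 and 4.79 on 4-OHT with knockdown, against 5.82 and 6.57 on 4-OHT alone and 4.25 untreated. As in IFI44L, hypoxia alone on day 2 gave the highest level and untreated Snai1ER cells the lowest. CXCL10, a chemokine for activated T cells, read 3.54 and 4.13 on hypoxia with knockdown, against 5.55 and 6.41 on hypoxia alone and 6.08 untreated. CXCL10 on TGFb was at 3.77 and 3.84 with knockdown and 5.91 and 6.63 without, so that its arrays with knockdown lay below those without on TGFb as well as on hypoxia. CXCL10 in the Snai1ER line was at 4.07 and 4.36 with knockdown, against 4.19 and 3.64 on 4-OHT alone and 3.77 untreated, where the arrays with and without knockdown overlapped. GBP2, a GTPase of the guanylate-binding family, ran the other way on hypoxia, at 6.76 and 6.70 with knockdown, against 5.74 and 6.03 on hypoxia alone and 5.88 untreated, and was between 4.40 and 5.12 on the other 9 arrays. TRIM22, BST2 and OASL passed the filter level on at least 1 array, TRIM22 at most at 6.65, BST2 at 6.09 and OASL at 5.95. The other 7 dim members lay between 2.95 and 6.65 on all arrays.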

How the data were processed

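RNA of each of 14 conditions was hybridised to 1 GeneChip Human Gene 1.0 ST array. The values are log2 levels that the authors made by robust multi-array averaging in Partek and deposited in 1 table of 33297 probe sets. The version of the tool is not given in the sources used here. Of these probe sets, 19460 carry 1 gene symbol in the platform annotation and were averaged per symbol, to 18417 genes, and 1754 with several symbols were left out. Genes with a mean log2 level under the 40th percentile, 5.90, were not tested. No depth applies to arrays, and the number of arrays limits the precision.

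Differences are between single arrays, on the deposited values and after quantile normalization over all 14 arrays. A gene was called when it differed by at least 1.5-fold, 0.58 on the log2 scale, in 1 direction on both days, which is a rule of size and no test. limma 3.58.1 in R 4.3.3 fitted 8 groups with the days pooled (6 residual degrees of freedom), the knockdown over 6 pairs with the pair as a block (5), and the knockdown by treatment (3), with Benjamini-Hochberg adjustment over all genes tested at 0.05. The pair is the same treatment and day, as the labels give them. On simulated data of 11050 genes the knockdown fit recovered 22% of genes changed 1.5-fold, 62% of those changed 2-fold and 94% of those changed 4-fold. The days pooled fit recovered 4%, 26% and 72%, and the contrast fit 2%, 0% and 46%. The simulated noise was independent for each gene and array, so a shift of a whole array was not simulated. Alternatives were other scalings, no filter, a 2-fold rule, single days, limma with a trend or array weights, no block, each array or pair left out, and, added after the data were seen, the fits without the TGFb pairs, the days pooled fits without the 2 arrays of TGFb alone, the count for TGFb with knockdown under these settings, and each pair left out after quantile normalization.

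The members and gene lists were chosen with earlier results of these data known. The members given array by array are, in each role, those whose levels varied most over the arrays. IRF1, IRF7, IRF9, TRIM14, CMPK2, MX2, CXCL10, GBP2, IFNB1, TRIM25, IFI30 and the markers of other cell types were added after their values were seen.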

Additional observations from a re-analysis of the deposited data

Results flagged for a closer look

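IFITM1 stood out because its knockdown difference on TGFb differed from the mean of those on hypoxia and 4-OHT, by 4.35 on the log2 scale as deposited (SE 0.40, adjusted p = 0.0264 by limma). After quantile normalization the contrast was 3.48 (SE 0.41, adjusted p = 0.263 by limma).

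After quantile normalization SP110 and UBE2L6 were higher with knockdown on both days of TGFb and lower with it in all 4 other pairs. SP110 was higher by 0.23 on day 1 and 0.036 on day 2 of TGFb. UBE2L6 was higher by 0.75 on day 1 and 0.089 on day 2 of TGFb. The test of the difference between treatments gave an adjusted p of 0.841 by limma for each gene.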

How the results depend on the processing

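The number of members that fell on TGFb and the number lower with knockdown on hypoxia stayed within 1.5 times the deposited count in all 8 alternatives. The TGFb count still depended on the scale, with 38 as deposited, 30 after quantile normalization and 26 with each array centred on its median. A 2-fold rule left 2 members that rose on hypoxia, 8 that rose on 4-OHT, 16 that fell on TGFb with knockdown, 6 lower with knockdown on 4-OHT and 1 higher with knockdown on TGFb. With 1 day alone, 20 rose on hypoxia (day 2), where 5.2% of all genes did. On day 1 of TGFb 29 were higher with knockdown as deposited, where the median difference of all genes was 0.46. With knockdown on 4-OHT 21 (day 2) and 20 (day 4) were lower. The share of all genes was not counted under the 2-fold rule, on these TGFb and 4-OHT days alone or after median centring. Quantile normalization gave 0 higher with knockdown on TGFb, 1 lower with knockdown over the 6 pairs, 0 for the treatment contrast of the knockdown and 0 lower on TGFb with the days pooled. Centring each array on its median gave 0, 13, 0 and 0 for the same 4 counts.

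The limma counts moved most. The knockdown over 6 pairs gave 2 members without the TGFb pairs, and 0 to 4 with 1 pair left out, the 4 without the TGFb day 1 pair. The treatment contrast gave 32 members of 48 with no filter, 20 with a mean-variance trend, 25 with array weights and 18 with no replicate block, and 0 to 16 with 1 pair left out. Without the block the knockdown over 6 pairs still gave 0. TGFb with the days pooled gave 42 members with no filter and 38 with array weights, and 0 to 35 with 1 array left out, 0 without either array of TGFb alone and 35 without either array of hypoxia with knockdown. Array weights gave 1 member on 4-OHT and 5 on TGFb with knockdown, against 0, and leaving out 1 array gave 0 to 2 on 4-OHT, the 2 without 4-OHT day 2. Hypoxia stayed at 0 in all 20 alternatives. Apart from the fit without the TGFb pairs, the share of all genes was not counted in these fits. The cause of these changes in the counts was not tested.

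With 1 array per condition, culture, array and treatment cannot be told apart. The 2 arrays with TGFb alone lie on another scale, so TGFb differences and the knockdown on TGFb hold only as far as quantile normalization brings the scales together. ANGPTL4 was too dim to check the knockdown.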
